A study of Mus musculus with 28 samples.

Results

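The genes described are 9 mouse genes of retinoic acid signalling: the receptor genes Rara, Rarb, Rarg and Rxra, the cellular binding protein genes Crabp1 and Crabp2, and the response genes Stra6, Stra8 and Dhrs3. They were chosen by name, because a retinoic acid receptor agonist was used in the sorted cultures, and they are 9 of 21755 protein-coding genes on chromosomes 1 to 19 and X in GENCODE M21. Every one of the 9 was found in the annotation. For each gene, the start and the body were placed in or out of the H3K9me2 domains of 5 deposited lists, and the distance to the nearest domain edge was taken.

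All cells came from the EHMT2-dTAG-mcherry line of mouse embryonic stem cells (mESCs), a BL6/129 hybrid in which the endogenous EHMT2 protein carries a degron tag that lets the compound dTAG-13 remove it. H3K9me2 was profiled by ULI-NChIP, which precipitates unfixed chromatin from few cells. For the 4 sorted lists, 1 clone that also carried a GFP reporter (MERV-GFP in the labels, MERVL-GFP in the methods) was kept for 72 h in DMSO, the solvent control, or in dTAG, and cells without GFP (mESC) were separated from cells with GFP (2CLC, 2-cell-like cells). All 4 groups share the tag, the reporter and culture in serum and LIF on fibroblast feeders. The labels state that the agonist TTNBP was given to 2 of the replicates and do not say which, whereas the methods give it for these cultures without such a limit. No sorted list can therefore be taken as free of the agonist, and its part in the positions of these genes was not tested. The remaining list carries no cell state or treatment in its name, was assigned to no group and is called the unnamed set. The series also holds unsorted mESC libraries kept for 24 h in DMSO, 2 precipitated and 2 inputs, with no list named for them. Whether the unnamed set came from these is not stated. It may therefore differ from the sorted lists in sorting, time and agonist. Each list is a single set of positions for a whole condition, so no value below has a replicate, no difference could be set against the spread between cultures, and no test was made. The lists give positions only, with no signal level, so the labelled cell states could not be checked against marker genes, and the depth behind the calls is unknown. The DMSO lists held 4323 (mESC) and 4246 (2CLC) domains with median widths of 140.0 and 115 kb, the dTAG lists held 7312 and 8820 with a median of 60.0 kb in either state, and the unnamed set held 6578. Where values for the 5 lists stand in a row below, mESCs come before 2CLCs, DMSO before dTAG within a cell state, and the unnamed set last.

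Retinoic acid is made from vitamin A in the cell and acts through nuclear receptors. A retinoic acid receptor (RAR) pairs with a retinoid X receptor (RXR) and sits on short repeated DNA motifs near its target genes, where it recruits co-repressors without ligand and co-activators with it. In embryonic stem cells the ligand is a classical inducer of differentiation. H3K9me2 is a mark of repressed chromatin, deposited largely by EHMT2 with its partner EHMT1, and it lies over the genome in broad domains.

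The DNA of the internal Rarb promoter is given first, because as deposited its start lay outside domains in 2CLC dTAG and inside in the other lists. In 2CLC dTAG it lay only 0.649 kb from an edge, less than the 5 kb step of the lists, so this difference is not resolved. The internal promoter is the textbook retinoic acid responsive promoter, from which the main inducible receptor isoform is made. The Rara window that held the most half-sites of any member and the window of Stra8, the meiotic response gene, are set beside it to show how promoters without such a pair look. Each is the RefSeq window of 300 bases, 250 before and 50 from the start, in build GRCm38.p6, and is written 5′ to 3′ on the gene's strand. Capitals mark, in Rarb, a pair of half-sites in the same orientation with 5 bases between them, and in the others every half-site on either strand.
Rarb (chr14:16575427-16575726, minus strand, start at 16575476): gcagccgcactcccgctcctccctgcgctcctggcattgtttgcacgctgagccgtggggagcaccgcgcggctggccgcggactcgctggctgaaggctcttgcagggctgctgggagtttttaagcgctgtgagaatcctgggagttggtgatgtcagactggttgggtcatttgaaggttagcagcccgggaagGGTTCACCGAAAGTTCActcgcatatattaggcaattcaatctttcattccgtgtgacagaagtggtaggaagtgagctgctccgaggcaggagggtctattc
Rara (chr11:98939461-98939760, plus strand, start at 98939711): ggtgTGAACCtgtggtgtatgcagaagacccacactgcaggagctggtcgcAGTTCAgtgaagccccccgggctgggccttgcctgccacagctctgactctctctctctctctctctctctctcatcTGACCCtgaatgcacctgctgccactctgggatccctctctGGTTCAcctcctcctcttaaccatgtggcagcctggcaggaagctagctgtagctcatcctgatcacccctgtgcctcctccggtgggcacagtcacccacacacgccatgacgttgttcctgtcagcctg
Stra8 (chr6:34920698-34920997, plus strand, start at 34920948): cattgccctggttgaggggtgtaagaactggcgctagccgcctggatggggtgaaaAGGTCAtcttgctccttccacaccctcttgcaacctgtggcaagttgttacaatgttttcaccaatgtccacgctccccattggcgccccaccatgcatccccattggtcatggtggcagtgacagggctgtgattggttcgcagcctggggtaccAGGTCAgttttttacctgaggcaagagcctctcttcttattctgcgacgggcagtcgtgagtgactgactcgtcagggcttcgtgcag

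The half-site AGGTCA was searched on both strands together with the variant AGTTCA, the variant GGGTCA and the variant GGTTCA. The Rarb window held 3 such half-sites, and the pair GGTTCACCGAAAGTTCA lay 53 to 37 bases before the start. This pair is the known retinoic acid response element of the gene. Among 32851 RefSeq windows of the same length, 32 held a pair with this spacing (0.0974%). The Rarb window was the only listed window of a member among them. A spacing of 2 bases was found in 0.268% of windows and a spacing of 1 base in 0.222%, and in no window of a member. RefSeq windows were listed for 8 of the 9 members and not for Crabp2. Of the 18 windows of members, 7 held at least 1 half-site, against 43.7% of all windows. A match is only a run of letters, and no binding was measured here. The Rarb window had 57.7% GC and 17 CpG dinucleotides, against a median of 52.7% and 7 over all windows, and the windows of members ranged from 45.0 to 83.0% GC.

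To ask which of these genes lie in H3K9me2 domains, the gene starts were examined. Rarb was the only member with its start in a domain in any list. In mESCs the count of members was 1 of 9 in DMSO, where 22.3% of all protein-coding genes had their start in a domain, and 0 of 9 in dTAG (23.6% of all genes). In 2CLCs it was 1 of 9 with either treatment, against 23.2% of all genes in DMSO and 26.5% in dTAG, and in the unnamed set it was 1 of 9 (30.0%). Across the 4 sorted lists, 8 of the 9 starts lay outside in every list, as did 65.8% of all genes. With 9 members, nothing is read from these shares alone. Gene bodies gave the same picture. Rarb was the only member with a base of its body in a domain in every sorted list, where 27.9, 30.9, 28.4 and 35.3% of all genes were touched. In the unnamed set Dhrs3 joined Rarb, making 2 of 9 (37.3% of all genes).

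Rarb encodes the beta receptor, itself induced by retinoic acid through the promoter shown above. The gene (ENSMUSG00000017491.9) spans 388 kb on the minus strand of chromosome 14, from 16430839 to 16819156 in GRCm38. In mESC DMSO a single domain from 16446126 to 16956124, 510.0 kb wide, covered 96.1% of the gene and held the start 137 kb from its nearer edge. In mESC dTAG the domain over the gene ran only from 16566125 to 16766124 and covered 51.5% of it. The start then lay outside, 52.0 kb from the nearest domain, in a gap of 105 kb from 16766125 to 16871124. In 2CLC DMSO a domain of 395 kb covered 96.1% of the gene, with the start 22.0 kb from its edge. In 2CLC dTAG 2 domains covered 88.3% of the gene and the start lay 77.0 kb inside a domain of 320.0 kb. The unnamed set covered the whole gene with a domain of 765 kb.

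**Figure D1:**
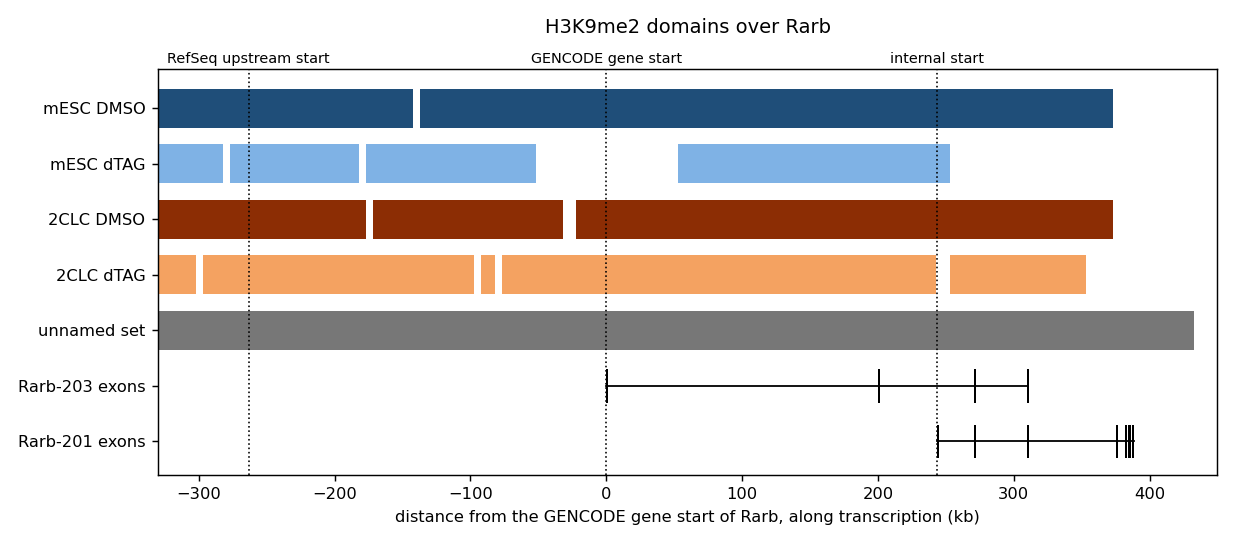
H3K9me2 domains over Rarb in the 5 lists, drawn to scale against the distance in kb from the GENCODE gene start along the direction of transcription, with the exons of 2 transcripts below (exon bars are widened to at least 1.5 kb to be visible) and dotted lines at 3 transcript starts. Domains cover 96.1% of the gene in both DMSO lists, 51.5% in mESC dTAG, where a gap of 105 kb holds the gene start, and 88.3% in 2CLC dTAG, where a gap of 10.0 kb holds the internal start.

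Counted base by base, 200.0 kb of Rarb lay in domains in both mESC lists, 173 kb in mESC DMSO alone and 0 kb in mESC dTAG alone. In 2CLCs the same counts were 343 kb in both, 30.0 kb in DMSO alone and 0 kb in dTAG alone. The domains of the DMSO lists covered the same 373 kb of the gene in the 2 cell states. The dTAG lists shared 190.0 kb, with 10.0 kb in mESC alone and 153 kb in 2CLC alone. Less of Rarb was thus covered with dTAG in mESCs and in 2CLCs alike, and the amount was larger in mESCs. The whole lists moved the same way, from 1413 Mb (DMSO) to 1220 Mb (dTAG) in mESCs and from 1357 to 1275 Mb in 2CLCs. A Rarb-like set of gene start positions, inside in mESC DMSO, 2CLC DMSO and 2CLC dTAG and outside in mESC dTAG, was held by 1.59% of all genes. Going from inside to outside with dTAG in mESCs was seen for 1 member, against 5.08% of all genes, and the opposite for 0 members, against 6.32%. In 2CLCs no member changed side in either direction, against 4.25% of all genes that went out and 7.52% that went in. Between the cell states, Rarb was inside in 2CLC dTAG and outside in mESC dTAG, as were 6.24% of all genes, while 0 members were inside in 2CLC DMSO and outside in mESC DMSO (3.99% of all genes).

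Rarb has 6 annotated protein-coding starts in GENCODE and RefSeq together, and the lists did not treat them alike. The upstream RefSeq start at 17082331, 263 kb before the GENCODE gene start, was in a domain in all 5 lists. The GENCODE starts at 16819156 and 16819005 were outside in mESC dTAG and inside in the other lists. The internal starts at 16575827, 16575543 and 16575476, the last being that of the promoter shown above, were inside in mESC dTAG, 9.35 to 9.70 kb from an edge, and outside in 2CLC dTAG. In 2CLC dTAG they lay in a gap of 2 bins (10.0 kb) between the 2 domains, only 0.298 to 0.649 kb from the nearest edge. The gap at the gene start in mESC dTAG stayed under every change of the domain limits tried, whereas the gap at the internal starts closed when domains were lengthened by 1 bin, when gaps of up to 10 kb were bridged, or when a start was given a window of 2.5 kb on either side. In all, 6, 4, 6, 3 and 6 of the 6 starts were in domains in the 5 lists. Of 4953 genes with GENCODE starts at least 5 kb apart, the share with starts on both sides of a domain edge was 7.87% (DMSO) and 9.71% (dTAG) in mESCs, and 8.18% (DMSO) and 13.0% (dTAG) in 2CLCs. Over the longer RefSeq span of 651 kb, domains covered 96.9, 62.4, 95.4, 91.5 and 100.0% in the same order.

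The domains ended before the end of the gene in the sorted lists. The 3′ edge lay 15.3 kb before the gene end in both DMSO lists, 135 kb before it in mESC dTAG and 35.3 kb before it in 2CLC dTAG. Of the 8 exons of the internal transcript Rarb-201, exons 4 to 8 lay outside in all 4 sorted lists and inside in the unnamed set. Exons 2 and 3 were outside in mESC dTAG alone, and exon 1 was outside in 2CLC dTAG alone. Rarb-203 begins at the GENCODE gene start, but its model ends at 16509065, within exon 3 of Rarb-201, and so lacks exons 4 to 8. Of its 4 exons, all were inside in both DMSO lists and in 2CLC dTAG, and 1 was inside in mESC dTAG.

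Rara encodes the alpha receptor, which is broadly expressed. Its start lay outside domains in every list, at 732 kb from the nearest domain with DMSO and 298 kb with dTAG in mESCs. In 2CLCs it lay at 747 and 298 kb, and in the unnamed set at 537 kb. The nearest domain as deposited was thus closer with dTAG in both cell states. With domains of at least 50 kb only, this turned, to 4617 kb with dTAG against 732 kb with DMSO in mESCs and 862 against 747 kb in 2CLCs. The nearest dTAG domain was the same stretch of 25 kb upstream in both cell states, chr11:98604703-98629702, and neither DMSO list had a domain within 500 kb. Rarg encodes the gamma receptor. Its start was 559 kb (DMSO) and 341 kb (dTAG) from a domain in mESCs, 624 and 639 kb in 2CLCs and 289 kb in the unnamed set, so the dTAG value as deposited was the shorter in mESCs and the longer in 2CLCs. With domains of at least 50 kb only, dTAG was the farther in mESCs (1296 against 559 kb) and the nearer by 1 bin in 2CLCs (1296 against 1301 kb). Rxra, the partner receptor, had distances of 828, 668, 828, 123 and 97.1 kb in the order of the lists. The short distance in 2CLC dTAG came from a domain of 15.0 kb, chr2:27537942-27552941, past the 3′ end of the neighbour Wdr5 at 27536535. Wdr5 encodes a subunit of H3K4 methyltransferase complexes. Its start, at 27515157, lay in a different domain, and in this list alone among the 5. None of the 8 annotated starts of Rara, 6 of Rarg and 5 of Rxra was in a domain in any list.

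Crabp1 and Crabp2 encode small cytoplasmic proteins that bind retinoic acid, and CRABP2 passes it to the receptors. The Crabp1 start was 157 kb (DMSO) and 302 kb (dTAG) from the nearest domain in mESCs, 398 and 302 kb in 2CLCs and 117 kb in the unnamed set. The shortest sorted value, in mESC DMSO, rests on a domain of a single 5.00 kb bin. As for Rara, the nearest dTAG domain was the same in both cell states, here a stretch of 15.0 kb downstream of the gene, chr9:55066551-55081550. Unlike at Rara, this stretch was not particular to dTAG. A mESC DMSO domain from 302 to 342 kb downstream of the start contained it, while 2CLC DMSO had no domain there. The Crabp2 start was 1609 kb (DMSO) and 80.7 kb (dTAG) from a domain in mESCs, 579 and 95.7 kb in 2CLCs and 864 kb in the unnamed set. In dTAG its nearest domains, 45.0 kb wide in mESCs and 30.0 kb wide in 2CLCs, ended at the same base, 88074393 on chromosome 3. As deposited, Crabp2 thus had no domain within 500 kb in either DMSO list, and domains over 12.0% (mESC) and 13.0% (2CLC) of that window in dTAG. With domains of at least 50 kb only, its distances were 2499 kb (DMSO) and 989 kb (dTAG) in mESCs, and 579 and 329 kb in 2CLCs. The nearest dTAG domain was then outside that window in mESCs.

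Stra6 encodes the membrane receptor that takes up retinol. It was the member farthest from domains in both DMSO lists, at 1973 kb in mESC DMSO and 978 kb in 2CLC DMSO, and lay at 657 kb in mESC dTAG, 567 kb in 2CLC dTAG and 856 kb in the unnamed set. No list had a domain within 500 kb of it. Stra8, a gene of meiotic entry that retinoic acid switches on in germ cells, had distances of 324, 396, 466, 209 and 288 kb in the order of the lists, so no list brought a domain within 200 kb. All 11 annotated starts of Stra6 and all 5 of Stra8 were outside in all lists.

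Dhrs3 encodes a retinal reductase that lowers retinoic acid production and is induced by it. It was the member nearest to a domain without its start in one. Its start lay 18.4 kb from the edge of a broad upstream domain in mESC DMSO, mESC dTAG and 2CLC DMSO, with the edge at base 144874425 of chromosome 4 in all 3 lists, and 28.4 kb from it in 2CLC dTAG. This domain was 425 kb (DMSO) and 345 kb (dTAG) wide in mESCs, and 440.0 and 305 kb wide in 2CLCs. The upstream neighbour Gm438, whose start is 106 kb away, was inside it with its whole body in each sorted list. In the unnamed set a separate domain of 25 kb began 2.43 kb downstream of the Dhrs3 start and covered 70.7% of the gene, against 0% in each sorted list.

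**Figure D2:**
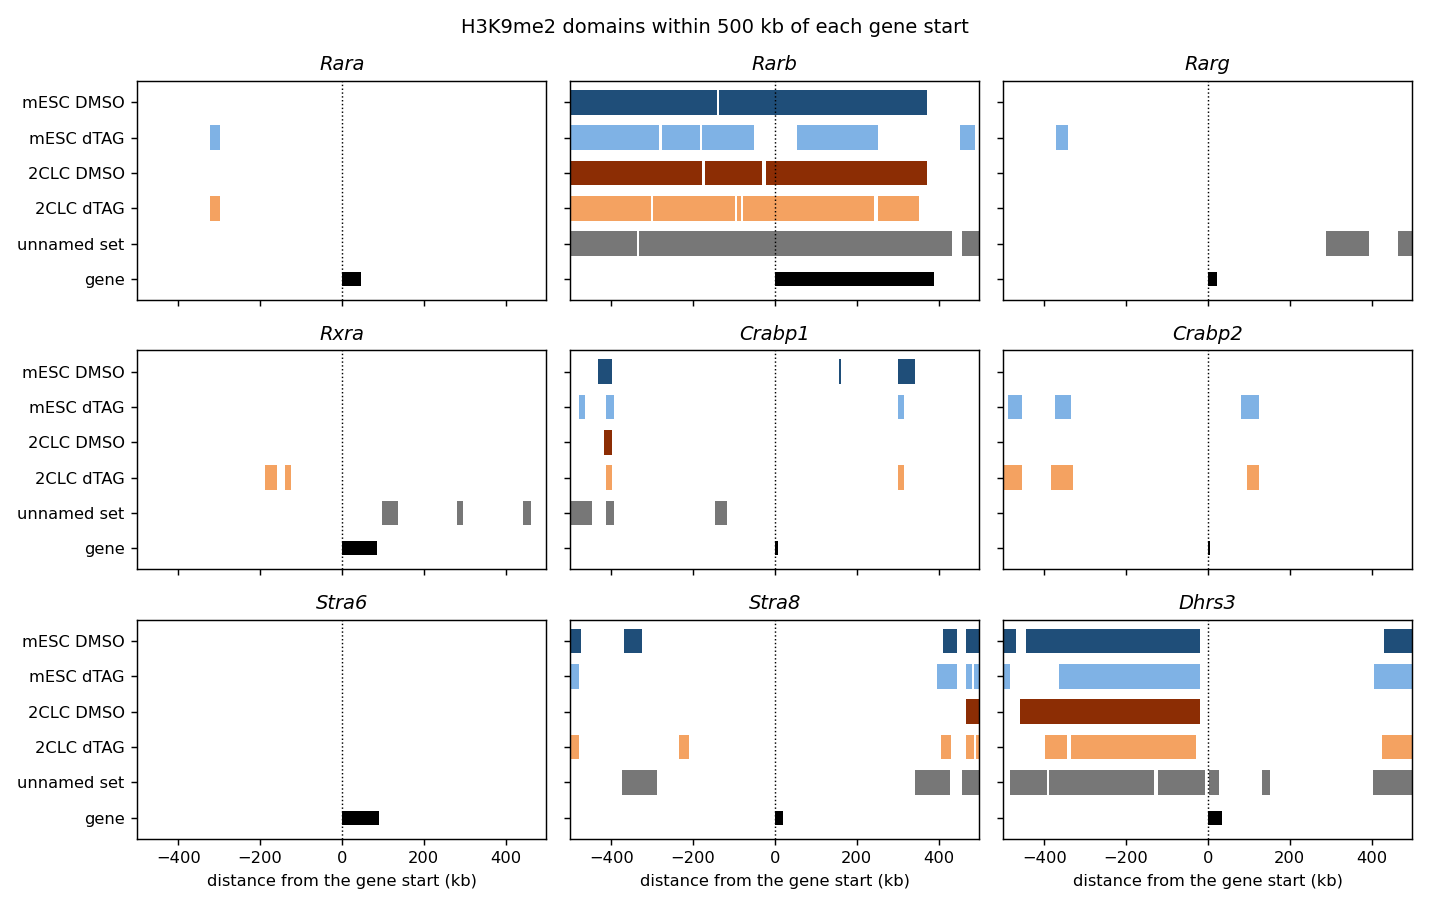
H3K9me2 domains within 500 kb of each gene start, drawn along the direction of transcription (kb, gene start at 0), with a row for each of the 5 lists and the gene in black (drawn at least 4 kb long). Rarb and Dhrs3 lie in or beside broad domains in every list, and Stra6 has no domain in its window in any list.

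The share of the 500 kb on either side of the start that lay in domains set the same genes apart. For Rarb it was 86.8% (DMSO) and 67.3% (dTAG) in mESCs, 85.8 and 82.8% in 2CLCs and 97.0% in the unnamed set. For Dhrs3 it was 52.5, 45.5, 44.0, 43.3 and 60.5%. Over all genes the median was 17.5, 16.5, 14.2, 20.5 and 35.3%. Over the sorted lists Stra8 ranged from 3.38 to 13.9% and Crabp1 from 2.00 to 8.00%, and Crabp2 reached 12.0 and 13.0% in dTAG. Rara, Rarg, Rxra, Crabp2 and Stra6 had no domain in the window in either DMSO list. In mESC dTAG only Rxra and Stra6 had none, and in 2CLC dTAG only Rarg and Stra6.

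Taking the starts outside domains, the median distance of the members was 645 kb (DMSO, 8 starts) and 302 kb (dTAG, 9 starts) in mESCs. In 2CLCs it was 602 and 253 kb, and in the unnamed set 288 kb, each over 8 starts. The medians over all genes with starts outside were 315, 146, 329, 105 and 198 kb. The members farther than the median of all genes numbered 6 of 8, 6 of 9, 7 of 8, 6 of 8 and 5 of 8. In mESCs 5 of the 8 members outside in both lists were nearer to a domain in dTAG by at least 5 kb, while Crabp1 and Stra8 were farther and Dhrs3 did not move. The background was 68.0% of genes. In 2CLCs 6 of 8 were nearer and Rarg and Dhrs3 were farther, against 76.4% of all genes. As deposited, shorter distances in dTAG were thus common to most genes. They rested in part on narrow dTAG domains, since with domains of at least 50 kb only, chosen for this count after seeing the data, 4 of 8 members were nearer in mESCs (47.5% of all genes) and 4 of 8 in 2CLCs (58.6%). Rara and Rarg then became farther and Stra8 nearer in mESCs, and Rara, Crabp1 and Stra8 became farther and Rarg nearer in 2CLCs. The nearest edge lay within 1 kb of the same place in the 2 cell states for 2 of 8 members in DMSO (Rxra and Dhrs3), against 15.1% of all genes, and for 2 of 8 in dTAG (Rara and Crabp1), against 24.1%.

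**Figure D3:**
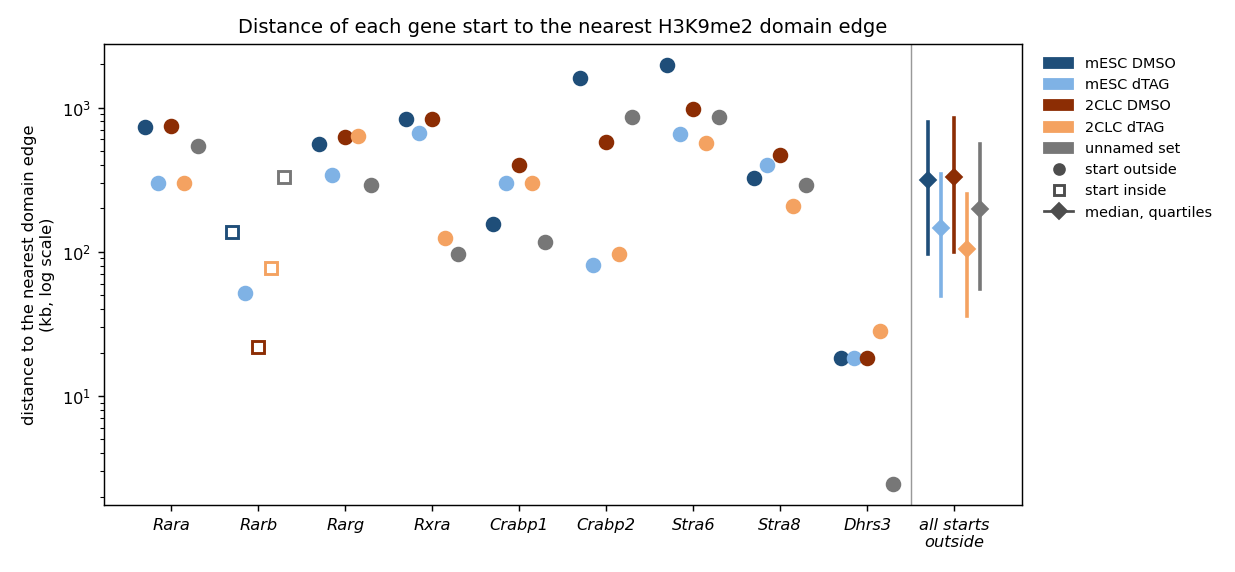
Distance in kb (log axis) from each gene start to the nearest H3K9me2 domain edge in the 5 lists, with filled circles for starts outside domains and open squares for starts inside. At the right, diamonds and bars give the median and quartiles over all protein-coding starts outside domains. Dhrs3 sits lowest among the starts outside, at 2.43 to 28.4 kb, and Stra6 at 567 to 1973 kb.

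The sequence around the members differed. Within 100 kb of the start, Rarb had 41.0% GC and 78.0% of all genes had more, whereas the other members had 44.6 to 52.0% GC. All genes had a median of 44.3%. Rarb was also the most isolated, with 1 protein-coding start within 500 kb, against 7 to 38 for the other members and a median of 16. Its upstream neighbour is Thrb, the thyroid hormone receptor beta gene at 841 kb. Its start was in domains in 2CLC DMSO, 2CLC dTAG and the unnamed set and outside in both mESC lists. The mESC lists still covered 73.3% (DMSO) and 53.5% (dTAG) of the Thrb body. In mESC dTAG the Thrb start at 17660261 lay less than 5 kb past a domain that ended at 17656123. The downstream neighbour of Rarb, Top2b, a DNA topoisomerase gene, had its start inside in mESC dTAG alone. That start, at 16365179, was less than 5 kb from the domain end at 16366125, and 1.35% of the Top2b body was covered. Of the 18 nearest neighbours of the members on either side, 1, 2, 2, 3 and 2 had their start in a domain in the 5 lists. Over all genes the shares were 22.3, 23.6, 23.2, 26.5 and 30.0%. The part of base composition and gene density in the position of domains was not tested.

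To place the 9 genes in their pathway, 42 other genes of retinoid transport, metabolism and response were examined by role. In mESCs, 4 of the starts lay in domains with DMSO and 4 with dTAG (9.52% each), in 2CLCs 7 (16.7%) and 6 (14.3%), and in the unnamed set 14 (33.3%), to be read against the shares of all genes given above. Outside all 4 sorted lists were 30 of the 42. Of the 14 genes of synthesis and storage, 3, 3, 7, 2 and 7 were inside in the 5 lists in the same order. Aldh1a1, which makes retinoic acid from retinal, was inside in every list, but only 4.1 kb from the edge in 2CLC dTAG. Lrat, which stores retinol as esters, was inside in mESC dTAG, 2CLC DMSO and the unnamed set. The alcohol dehydrogenase genes Adh1, Adh4, Adh5 and Adh7 all had their start inside a single domain of 280.0 kb in 2CLC DMSO, so they are not independent. The Adh5 start was only 1.23 kb from the edge of that domain. Of these genes only Adh5 was inside in 2CLC dTAG. Rdh14, a retinol dehydrogenase gene, was inside in both DMSO lists and outside in both dTAG lists. Of the 6 genes of uptake and transport, 0 were inside in mESC DMSO, mESC dTAG and 2CLC DMSO, and 3 were inside in 2CLC dTAG. These were Rbp2, Ttr and Stra6l, which encode a retinol-binding protein, the plasma carrier transthyretin and a relative of STRA6, and the starts of Rbp2 and Stra6l were only 0.378 and 0.894 kb from the edge.

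Fabp5, whose product delivers retinoic acid to another nuclear receptor, was inside in both dTAG lists and outside in both DMSO lists. In mESCs its start lay 3.05 kb outside with DMSO and 1.95 kb inside with dTAG, both less than the 5 kb step of the lists, and in 2CLCs 43.1 kb outside and 33.1 kb inside. Of the 10 genes known to respond to retinoic acid, Rarres1 alone was inside in a sorted list, in mESC DMSO, 1.10 kb from the edge. The starts of the 3 Cyp26 genes of retinoic acid breakdown and of the 6 co-regulator genes were outside in all 5 lists. Some were less than 5 kb from a domain. The start of the co-regulator gene Nrip1 was 0.985 kb away in both DMSO lists, and domains covered 2.79% of its body in 2CLC DMSO and 72.7% in the unnamed set. In the unnamed set the Cyp26a1 and Cyp26b1 starts were 4.51 and 3.34 kb away. None of the 42 had the Rarb pattern of gene start positions, which 1.59% of all genes held, so nothing is read from its absence. Over the list, 3 of 42 genes went out and 3 went in with dTAG in mESCs, where 5.08 and 6.32% of all genes did so. In 2CLCs 5 went out and 4 went in, beside 4.25 and 7.52% of all genes. Adh1, Adh4 and Adh7, which share a domain, were 3 of these 5, and Rbp2 and Stra6l, both under 1 kb from an edge, were 2 of these 4.

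**Figure D4:**
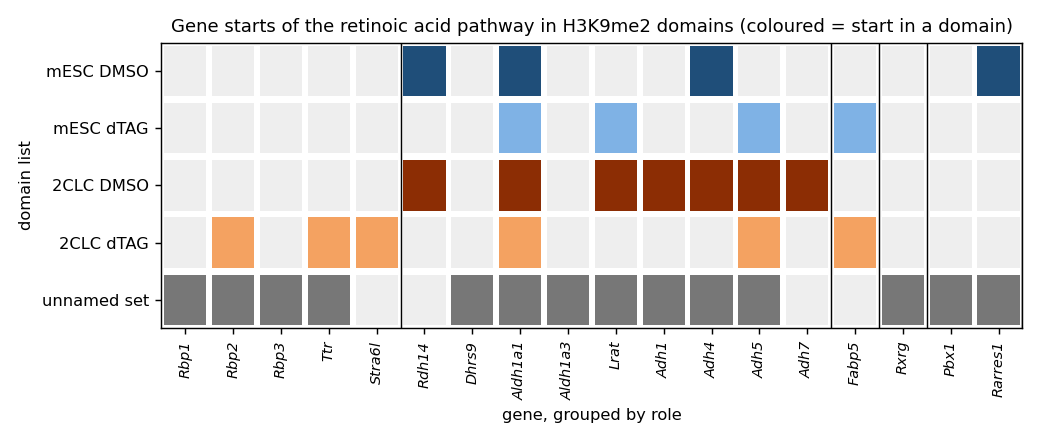
Start in (coloured) or out of (palest grey) an H3K9me2 domain for the 18 of 42 other retinoic acid pathway genes with their start in a domain in at least 1 list, with genes in columns grouped by role and the 5 lists in rows. The coloured cells number 4, 4, 7, 6 and 14 from the top row down, and Aldh1a1 is coloured in every row.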

How the data were processed

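The authors deposited 5 lists of H3K9me2 domains (chromosome, start and end in mm10, with no score in use), and no signal level, replicate or library total was analysed here. Per the labels and the study's methods, ULI-NChIP and input reads were aligned with STAR 2.7.10 in a mode that keeps multi-mapping reads, duplicates were removed with Picard 2.26.0, coverage was scaled with deepTools 3.5.1, and the log2 ratio to input was taken on a grid of 5 kb. Domains were grown from bins above a high percentile out to a low percentile. Pooling of replicates and the reach of the percentiles are not stated, so a position in a domain is not a level of the mark, and changes in the number or width of domains elsewhere can move these limits.

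Each sorted list was assigned by the cell state and treatment in its name, and the unnamed set to no group. Starts and bodies of 21755 protein-coding genes (GENCODE M21, chromosomes 1 to 19 and X) were intersected with the lists in Python 3.11.15 with numpy 2.4.6, and figures were drawn with matplotlib 3.10.9. No domain passed the end of its chromosome in GRCm38.p6. A gene start is the 5′ end of the GENCODE gene, and a distance runs to the nearest edge. Intersections were tested on simulated intervals with known answers. With 1 list per condition no test was possible, and members are set beside the share of all genes. Promoter windows and extra transcript starts came from RefSeq (GRCm38.p6). The 9 genes, the 42 pathway genes and the motifs were chosen with earlier results of these data known. The genes named were the 9 members, their nearest protein-coding neighbours with a start in a domain, and every pathway gene with its start in a domain of a sorted list. Nrip1, Cyp26a1 and Cyp26b1 were also named, for starts outside but near an edge. Alternatives were a minimum width of 50 kb, domains shortened or lengthened by 1 bin, gaps of up to 10 kb bridged, a start window of 2.5 kb, at least 50% of the body, any protein-coding start, and the RefSeq start.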

Additional observations from a re-analysis of the deposited data

Results flagged for a closer look

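The unnamed set was assigned to no condition. Its gene body shares for the members and its count of pathway starts are listed here only where they exceeded both DMSO lists. This gave 3 values, which stand above the DMSO lists by that choice. Rarb lay in its domains over 100.0% of the gene, against 96.1% in both DMSO lists. Dhrs3 lay in its domains over 70.7% of the gene, against 0% in both DMSO lists. Of the 42 pathway genes 14 had their start in its domains, against 4 in mESC DMSO and 7 in 2CLC DMSO, and over all genes the shares were 30.0, 22.3 and 23.2%. The unnamed set covered more of the genome than the DMSO lists, 1650 Mb against 1413 Mb (mESC) and 1357 Mb (2CLC). Its part in these values was not tested.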

How the results depend on the processing

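Of 117 counts of members or pathway genes recomputed under the alternatives, 107 stayed within 1.5 times the value given and 10 did not. With domains of at least 50 kb only, pathway starts in 2CLC dTAG were 3 in place of 6, and member bodies touched in the unnamed set were 1 in place of 2. With domains shortened by 1 bin at both ends, pathway starts in 2CLC dTAG were also 3. Member starts in the unnamed set were 2 in place of 1 with domains lengthened by 1 bin, with gaps of up to 10 kb bridged, and with a window of 2.5 kb around the start. The added gene was Dhrs3, whose start then lay inside a domain, at a signed distance of -32.4 kb with lengthened domains and -27.4 kb with bridged gaps (negative inside, 2.43 kb outside as deposited). Counting any protein-coding start, or the RefSeq start, which was chosen after seeing the data, members inside in mESC dTAG were 1 in place of 0, and members that differed between DMSO and dTAG in mESCs were 0 in place of 1. The change of side counted for Rarb in mESCs therefore holds for its GENCODE gene start and not for all of its starts. Coverage of Rarb in mESCs fell from 96.1% (DMSO) to 51.5% (dTAG) over the GENCODE gene and from 96.9 to 62.4% over the longer RefSeq span. The size of the fall thus depends on the start taken. Of 180 distances, 145 moved by no more than 5 kb, 33 moved further and 2 turned sign. With domains of at least 50 kb only, whether dTAG or DMSO had the nearer domain changed for Rara, Rarg and Stra8 in mESCs and for Rara, Rarg, Crabp1 and Stra8 in 2CLCs. No paired analysis was possible because each condition has a single list with no replicate, and for the same reason no replicate could be left out. The depth behind the lists is unknown, and their limits are set in steps of 5 kb, so positions closer than that to an edge are not resolved.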
